A study of Mus musculus with 36 samples.

Results

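Voltage-gated sodium, calcium and potassium channels were examined in RNA sequencing of mouse brain. The set holds every gene of the mRNA table whose symbol belongs to the sodium channel families (Scn), the calcium channel families (Cacna1, Cacnb, Cacng, Cacna2d), the potassium channel families (Kcna, Kcnb, Kcnc, Kcnd, Kcnf, Kcng, Kcnh, Kcnq, Kcns) or the pacemaker family (Hcn), which made 81 genes of 22050. The comparison covered 4 groups of 3 libraries each: APP/PS1 mice on C57BL/6 at 6 months, wild-type C57BL/6 mice at 6 months, APP/PS1 mice at 9 months and wild-type mice at 9 months. APP/PS1 mice carry the APP695swe and PS1-dE9 transgenes, a model of amyloid deposition, and the labels give neither the promoter of the transgenes nor the sex of the animals. The labels do not state whether each library is a different animal. The p-values below therefore refer to variation among the libraries, some of which could be technical.

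Voltage-gated channels set how neurons fire. Sodium channel alpha subunits carry the rising phase of the action potential, and beta subunits are single-pass proteins that alter their gating and surface number. Calcium channel alpha-1 subunits (Cacna1) let calcium in at synapses and dendrites, with beta and alpha-2-delta subunits controlling their traffic. The Cacng genes encode relatives of the skeletal muscle gamma subunit, most of which act in brain as auxiliary subunits of AMPA-type glutamate receptors. Potassium channels bring the membrane back down and set the interval between spikes, and HCN channels carry a pacemaker current that opens when the membrane is hyperpolarised. Changes in excitability, seizures among them, have been described in mice that deposit amyloid.

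Levels are given in FPKM, fragments scaled by transcript length and library size, summed over the transcripts of a gene, and can therefore be set against each other between genes. The libraries held 16699 to 16996 genes above 0, and the mRNA and lncRNA tables hold FPKM without read counts, so the depth behind these values is unknown. App read 969.9 to 1007 and 973 to 1029 FPKM in APP/PS1 libraries at 6 and 9 months, against 433 to 441 and 444 to 453 FPKM in wild type, so its level separated the genotypes as labelled. The protocol text of the labels names retinas, while the tissue label reads brain. The 8 photoreceptor markers examined stayed at or below 0.702 FPKM in every library, and 7 neuronal markers summed to at least 1655 FPKM in every library. Of 8 cerebellar markers 6, Gabra6 and Pcp2 among them, stayed at or below 0.496 FPKM, while Cbln1 was at 3.45 to 7.09 FPKM and Car8 at 1.87 to 3.27 FPKM.

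Of the 81 channel genes, 70 averaged 0.5 FPKM or more across all 12 libraries and were tested, and 47 had a mean of at least 10 FPKM. Together the 81 genes took 0.541% to 0.591% of the summed FPKM of a library. Their sum was 1704, 1617 and 1628 FPKM in APP/PS1 at 6 months, against 1730.2, 1729.8 and 1723 FPKM in wild type at 6 months. At 9 months it was 1684, 1693 and 1674 FPKM in APP/PS1, against 1696, 1683 and 1723 FPKM in wild type. The groups did not overlap at 6 months, and they overlapped at 9 months.

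**Figure D1:**
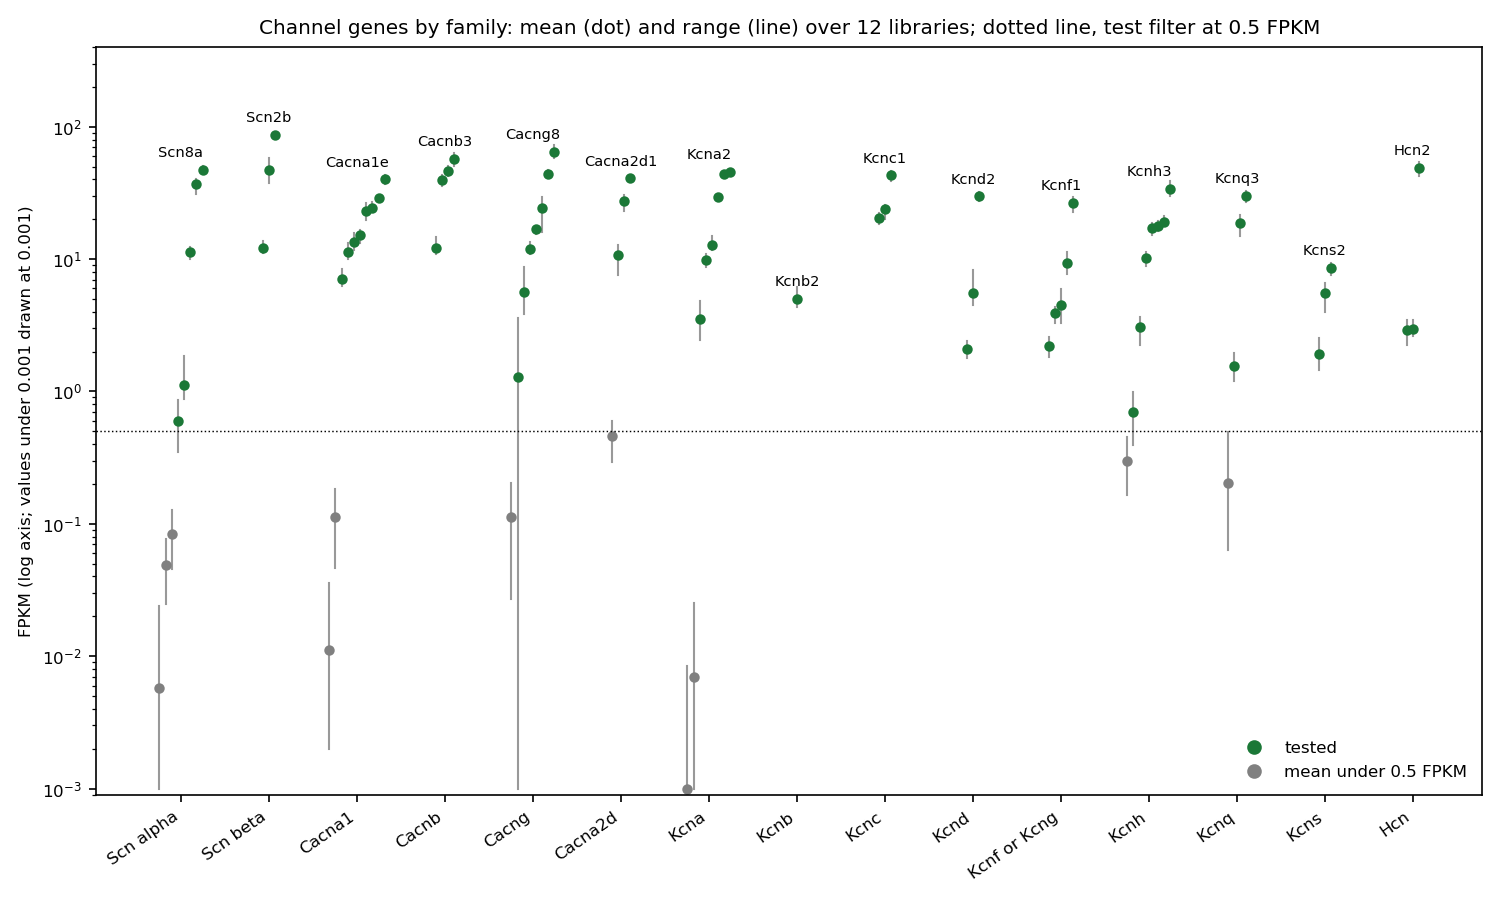
Level of 75 of the 81 channel genes, grouped by family (horizontal axis), as the mean (dot) and the range (line) over 12 libraries in FPKM on a log axis; green dots are 64 tested genes and grey dots the 11 with a mean under 0.5 FPKM. Names mark the most abundant gene shown in each family, among them Cacng8 at a mean of 64.2 FPKM and Scn8a at 47.2 FPKM.

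Sodium channel beta subunits were abundant. Scn2b, the beta-2 subunit that is linked to alpha subunits by a disulfide bond, averaged 86.4 FPKM (81.2 to 90.4 over 12 libraries). In the order of mean levels, 67 of the 69 neighbouring pairs of tested genes overlapped in range, so most of the order is not fixed beyond the spread of the libraries. Scn4b, the beta-4 subunit, which is abundant in striatal projection neurons and takes part in the resurgent sodium current, averaged 47.0 FPKM, and Scn3b 12.1 FPKM. Among the alpha subunits, Scn8a of the axon initial segment and the nodes of Ranvier averaged 47.2 FPKM and Scn1a, prominent in inhibitory interneurons, 36.7 FPKM. Scn2a1, the older symbol of another main neuronal alpha subunit, does not match the naming rule and is not among the 81 genes, and its level was 131 to 143 FPKM. Scn3a averaged 11.3 FPKM. Scn7a, a sodium-sensing channel of glia and circumventricular organs, averaged 1.13 FPKM and Scn9a, best known from sensory neurons, 0.598 FPKM.

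Among calcium channel genes, Cacna1e (R-type) at 39.9 FPKM and Cacna1a (P/Q-type) at 28.9 FPKM were the most abundant alpha-1 subunits, followed by the T-type gene Cacna1i at 24.5 FPKM and the N-type gene Cacna1b at 23.3 FPKM. The L-type genes Cacna1c and Cacna1d averaged 15.3 and 7.07 FPKM. Cacnb3 at 56.7 FPKM and Cacna2d1, a binding target of gabapentin, at 40.6 FPKM led the beta and alpha-2-delta families. Cacng8 led the Cacng family at 64.2 FPKM. Among potassium channel genes, the axonal Shaker genes Kcna2 and Kcna1 averaged 45.5 and 44.0 FPKM. Kcnc1, a channel of fast-spiking neurons, averaged 42.8 FPKM, Kcnh3 33.7 FPKM, Kcnd2, of the transient A-type current, 29.7 FPKM, and the silent subunits Kcnf1 and Kcns2 26.7 and 8.57 FPKM. Hcn2 was the most abundant pacemaker gene at 49.0 FPKM, with Hcn3 at 2.98 FPKM and Hcn4 at 2.91 FPKM.

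The 11 genes under 0.5 FPKM were largely those known from muscle, retina, heart, kidney or sensory ganglia. Cacna2d4 (0.460 FPKM), Kcnh8 (0.296 FPKM) and Kcnq1 (0.204 FPKM) were the highest of them. The skeletal muscle genes Cacna1s and Cacng1 averaged 0.112 FPKM each and Scn4a 0.00570 FPKM. The sensory neuron genes Scn10a and Scn11a averaged 0.0844 and 0.0489 FPKM. Cacna1f, the calcium channel of photoreceptor terminals, averaged 0.0111 FPKM and never passed 0.0358 FPKM. Kcna10 averaged 0.00695 FPKM, and Kcna7 was listed at 0 in every library but 1.

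Promoter windows differed widely between the channel genes. RefSeq windows of 300 bases on GRCm38.p6, most of each lying upstream of the gene start, were found for 56 of the 81 genes. The number of CG pairs per window (both strands read alike) had a median of 20.25 over the 48 tested channel genes with a window and 4.5 over the 8 untested ones, beside 21 over all 10096 tested genes with a window and 3 over 5755 untested ones. At least 10 CG pairs were present in 75% of the tested channel genes, against 84.2% of all tested genes. Per gene the number ran from 0 at Kcna10 to 49 at Kcng3. The windows of 3 sodium channel genes on chromosome 9 are shown as CG-poor and CG-rich examples: the abundant Scn2b (chr9:45117626-45117925, plus strand, 2 CG pairs), its neighbour Scn4b (chr9:45138374-45138673, plus strand, 26 CG pairs) and the near-absent Scn11a (chr9:119825407-119825706, minus strand, 3 CG pairs). Capitals mark the CG pairs.
Scn2b: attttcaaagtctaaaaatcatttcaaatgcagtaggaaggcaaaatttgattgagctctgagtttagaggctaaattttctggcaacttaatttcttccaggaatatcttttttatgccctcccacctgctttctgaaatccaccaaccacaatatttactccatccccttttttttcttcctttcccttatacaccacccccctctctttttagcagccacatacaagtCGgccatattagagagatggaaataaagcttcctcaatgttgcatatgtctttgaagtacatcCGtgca
Scn4b: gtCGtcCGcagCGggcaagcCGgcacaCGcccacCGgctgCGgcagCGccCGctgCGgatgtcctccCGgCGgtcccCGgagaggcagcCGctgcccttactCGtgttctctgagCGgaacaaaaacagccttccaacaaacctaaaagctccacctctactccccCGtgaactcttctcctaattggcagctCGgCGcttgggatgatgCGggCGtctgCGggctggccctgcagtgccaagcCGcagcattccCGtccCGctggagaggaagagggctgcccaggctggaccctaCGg
Scn11a: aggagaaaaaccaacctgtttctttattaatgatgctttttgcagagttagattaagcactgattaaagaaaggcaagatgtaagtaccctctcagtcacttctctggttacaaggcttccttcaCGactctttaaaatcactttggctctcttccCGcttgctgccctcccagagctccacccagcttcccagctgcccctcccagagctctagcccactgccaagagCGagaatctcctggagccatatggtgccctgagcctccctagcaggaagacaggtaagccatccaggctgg
The abundant Scn2b thus held 2 CG pairs at this start, against 3 at Scn11a and 26 at Scn4b.

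The comparison of APP/PS1 with wild type asks which channel genes differ with the transgenes at each age. At 6 months none of the 70 tested channel genes passed an adjusted p of 0.05 (limma on log2(FPKM + 0.25), Benjamini-Hochberg over 13545 genes), where 6 genes or 0.0443% of all tested genes did. At an unadjusted p under 0.05 there were 8 channel genes, all of them lower in APP/PS1, or 11.4%, against 11.8% of all genes in either direction and 7.12% in the lower one. The count was 14 without APP/PS1 library 1 (20%, against 14% of all genes). It was 4 without APP/PS1 library 2 or 3 (5.71%, against 9.48% and 10.3% of all genes). Without wild-type library 1 or 3 it was 5 (7.14%, against 10.7% and 10.3% of all genes). With striatal and choroid plexus scores as covariates it was 1 (1.43%, against 4.56% of all genes). The median log2 difference was -0.04 over the channel genes and -0.01 over all genes, with 54 of 70 channel genes below 0 and 54% of all genes below 0. All 8 tested Cacna1 genes, all 6 Kcna genes, all 4 sodium channel beta genes and all 3 Cacna2d genes had estimates below 0, with medians of -0.04, -0.06, -0.09 and -0.07. These families were picked for a shared sign. Below 0 were 6 of 7 Cacng, 6 of 7 Kcnh, 3 of 4 Hcn, 3 of 4 Kcnc and 2 of 3 Kcnd genes. So were 3 of 5 Kcnf or Kcng, 3 of 6 sodium channel alpha, 2 of 4 Cacnb, 2 of 4 Kcnq and 1 of 3 Kcns genes. The 95% interval of the difference lay within 0.5 log2 units of 0 for 61 of the 70 genes and for 82.5% of all genes. In bulk tissue, fewer cells of a type and less RNA per cell cannot be told apart.

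The 6-month groups did not overlap for 12 channel genes, or 17.1%, where 15.9% of all tested genes did not overlap. Of these, 2 were higher in APP/PS1 (2.86%, against 6.7% of all genes), Scn7a among them. The other 10 were lower (14.3%, against 9.18% of all genes), among them Cacna1g, Kcna2, Kcna3, Kcna5, Kcnc4, Kcnd1, Kcnd2, Kcnh1 and Scn4b. Scn4b had 41.2, 37.6 and 40.7 FPKM in APP/PS1 at 6 months, against 58.1, 48.0 and 46.1 FPKM in wild type. All 3 APP/PS1 libraries lay below all 3 wild-type libraries, and wild-type library 1 was the highest of the 12. The log2 difference was -0.34 (SE 0.09), with an adjusted p of 0.187 (limma). Cacna1g, the T-type channel of thalamic burst firing, had 12.8, 11.7 and 11.8 FPKM in APP/PS1, against 13.5, 15.3 and 15.7 FPKM in wild type. Its log2 difference was -0.29 (SE 0.07, adjusted p = 0.178 by limma), the smallest adjusted p among the channel genes at this age. Kcnh1, the ether-à-go-go channel, had 18.8, 18.3 and 17.7 FPKM in APP/PS1, against 21.0, 21.1 and 20.0 FPKM in wild type, a narrow spread in both groups. Its log2 difference was -0.17 (SE 0.04, adjusted p = 0.187 by limma).

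Among the channel genes with an estimate above 0 at 6 months, those of smallest p included Scn7a at 0.23, Kcnq5 at 0.10 and Cacnb2 at 0.10, with adjusted p of 0.650 to 0.714 (limma). Kcnq5 was -0.02 without wild-type library 3 and Cacnb2 -0.01 without APP/PS1 library 1.

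Striatal markers were lower in the same 6-month libraries as Scn4b. Of 9 striatal markers in the table, 9 had a lower mean in APP/PS1 than in wild type at 6 months, and 0 had a lower mean in APP/PS1 at 9 months. Their summed level was 369 to 393 FPKM in APP/PS1 at 6 months, against 437 to 492 FPKM in wild type, without overlap, and 366 to 421 FPKM in APP/PS1 at 9 months, against 355 to 386 FPKM in wild type. No striatal marker was at 0. With striatal and choroid plexus scores as covariates the 6-month difference of Scn4b was -0.22, that of Cacna1g -0.29 and that of Kcnh1 -0.08, with an adjusted p of 0.979 for each (limma). Of 8 microglial markers 7 had a higher mean in APP/PS1 at 6 months and 8 at 9 months. Their sum was 128 to 139.6 FPKM in APP/PS1 at 6 months, against 104 to 127 FPKM in wild type, and 142 to 172 FPKM in APP/PS1 at 9 months, against 109 to 116 FPKM in wild type. Of 11 choroid plexus markers 11 had a higher mean in APP/PS1 at 6 months and 0 at 9 months. Thalamic markers did likewise, 7 of 7 at 6 months and 0 at 9 months, with sums that overlapped at both ages. These 6-month counts rest on single wild-type libraries. The thalamic score was 1.92, 3.27 and 3.20 in wild type at 6 months, against 2.66, 3.23 and 3.19 in APP/PS1. Ttr, a choroid plexus marker, was at 1.34, 267 and 6.94 FPKM in wild type, against 90.7, 302 and 277 FPKM in APP/PS1. Because the striatal level did not overlap between the 6-month groups, the covariate fit cannot separate genotype from makeup there. The part of regional and cellular makeup in these differences was not tested.

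**Figure D2:**
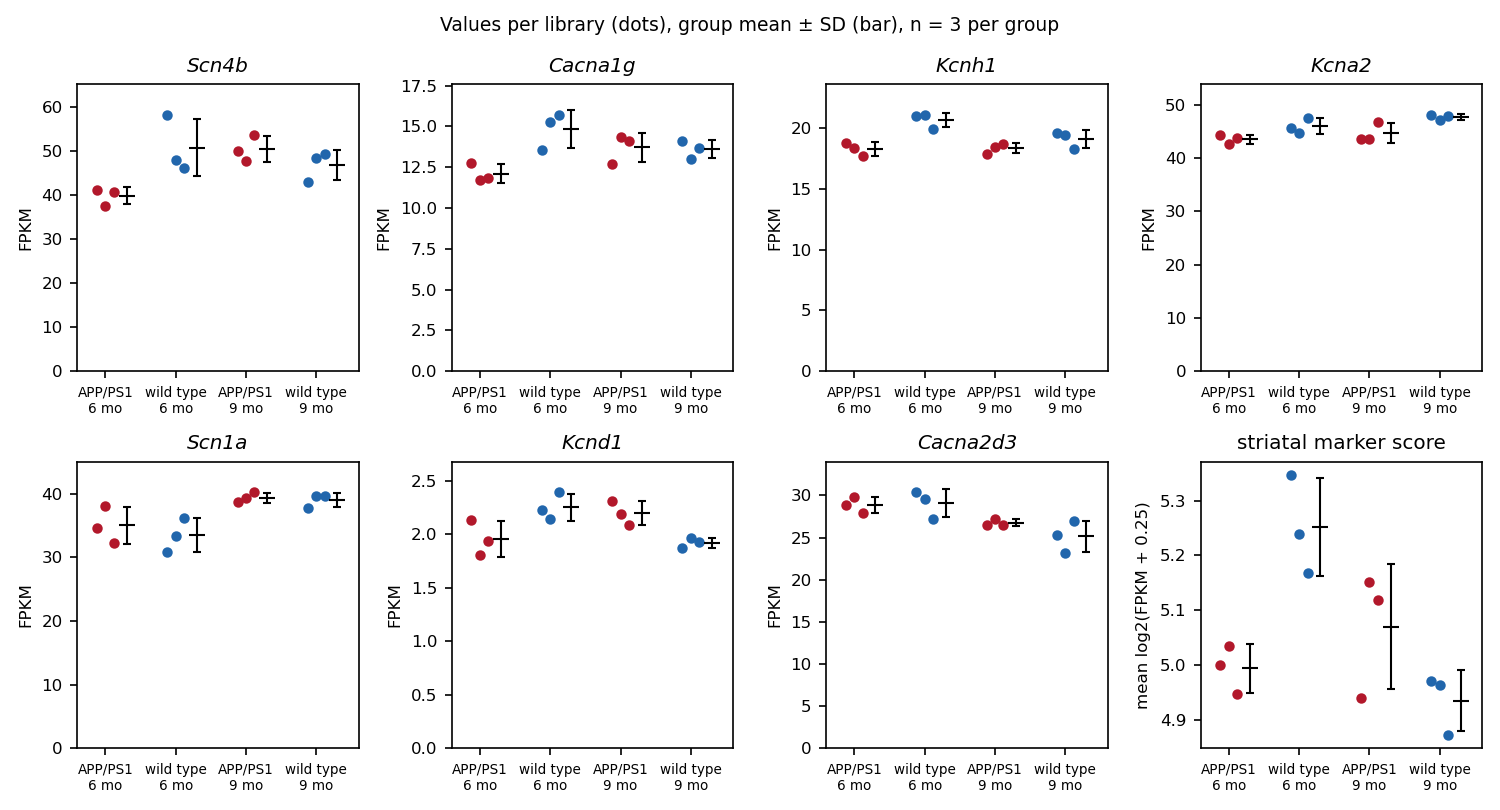
FPKM of 7 channel genes per library (dots), with the group mean and SD (n = 3), for APP/PS1 and wild type at 6 and then 9 months; the last panel is the striatal marker score, the mean log2(FPKM + 0.25) of 9 markers. Scn4b, Cacna1g, Kcnh1 and Kcna2 were lower in all 3 APP/PS1 libraries than in all 3 wild-type libraries at 6 months, as was the striatal score, while Scn1a overlapped between the genotypes at each age.

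At 9 months none of the 70 channel genes was called (limma), where 13 genes or 0.096% of all tested genes were. At an unadjusted p under 0.05 there were 2, Kcna2 among them, or 2.86%, against 9.74% of all genes. That count was 8 without wild-type library 2 (11.4%, against 9.59% of all genes) and 5 without APP/PS1 library 3 (7.14%, against 7.97%). It was 4 without APP/PS1 library 1 (5.71%, against 8.56%) and 1 without wild-type library 3 (1.43%, against 8.87%). Without APP/PS1 library 2 or wild-type library 1 it was 0, against 8.26% and 7.11% of all genes. Of the 6-month libraries, it was 1 (1.43%) without APP/PS1 library 2 or wild-type library 2 or 3, against 9.17% to 10.1% of all genes. With the striatal and choroid plexus covariates it was 0, against 6.36% of all genes. The choroid plexus markers summed to 78.6 to 301 FPKM in APP/PS1 at 9 months, against 314 to 358 FPKM in wild type, without overlap. The covariate fit therefore cannot separate genotype from these markers at 9 months either. The median log2 difference was 0.0070 over the channel genes and 0.0077 over all genes. Of the 70 channel genes 40 were above 0 and 30 below 0, where 46.6% of all genes were below 0. The groups did not overlap for 5 channel genes, or 7.14%, where 17.3% of all genes did not overlap. Kcnd1, Kcnq5 and Kcns3 were the higher ones in APP/PS1 (4.29%, against 9.29% of all genes). Kcna2 and Kcnc2 were the lower ones (2.86%, against 8.02% of all genes). The 95% interval lay within 0.5 log2 units of 0 for 62 of the 70 genes and for 82.5% of all genes.

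Kcna2 had 43.6, 43.5 and 46.8 FPKM in APP/PS1 at 9 months, against 48.0, 47.1 and 48.0 FPKM in wild type. At 6 months it had 44.3, 42.6 and 43.7 FPKM in APP/PS1, against 45.6, 44.6 and 47.6 FPKM in wild type. It was the 1 channel gene that was lower without overlap at both ages (1.43%, against 0.797% of all genes). The log2 difference was -0.10 (SE 0.04) at 9 months, with an adjusted p of 0.475 (limma). Cacnb1, a calcium channel beta subunit gene, had 40.1, 37.6 and 37.7 FPKM in APP/PS1, against 42.9, 39.0 and 41.7 FPKM in wild type, with overlap (log2 difference -0.10, adjusted p = 0.578 by limma). Cacna2d2, an alpha-2-delta subunit gene, had 10.7, 10.9 and 11.8 FPKM in APP/PS1, against 9.87, 10.7 and 7.59 FPKM in wild type (log2 difference 0.25, adjusted p = 0.565 by limma). Kcns3, a silent subunit that joins Kcnb channels, had 2.25, 2.51 and 2.08 FPKM in APP/PS1, against 1.95, 1.89 and 1.93 FPKM in wild type (log2 difference 0.22, adjusted p = 0.565 by limma).

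**Figure D3:**
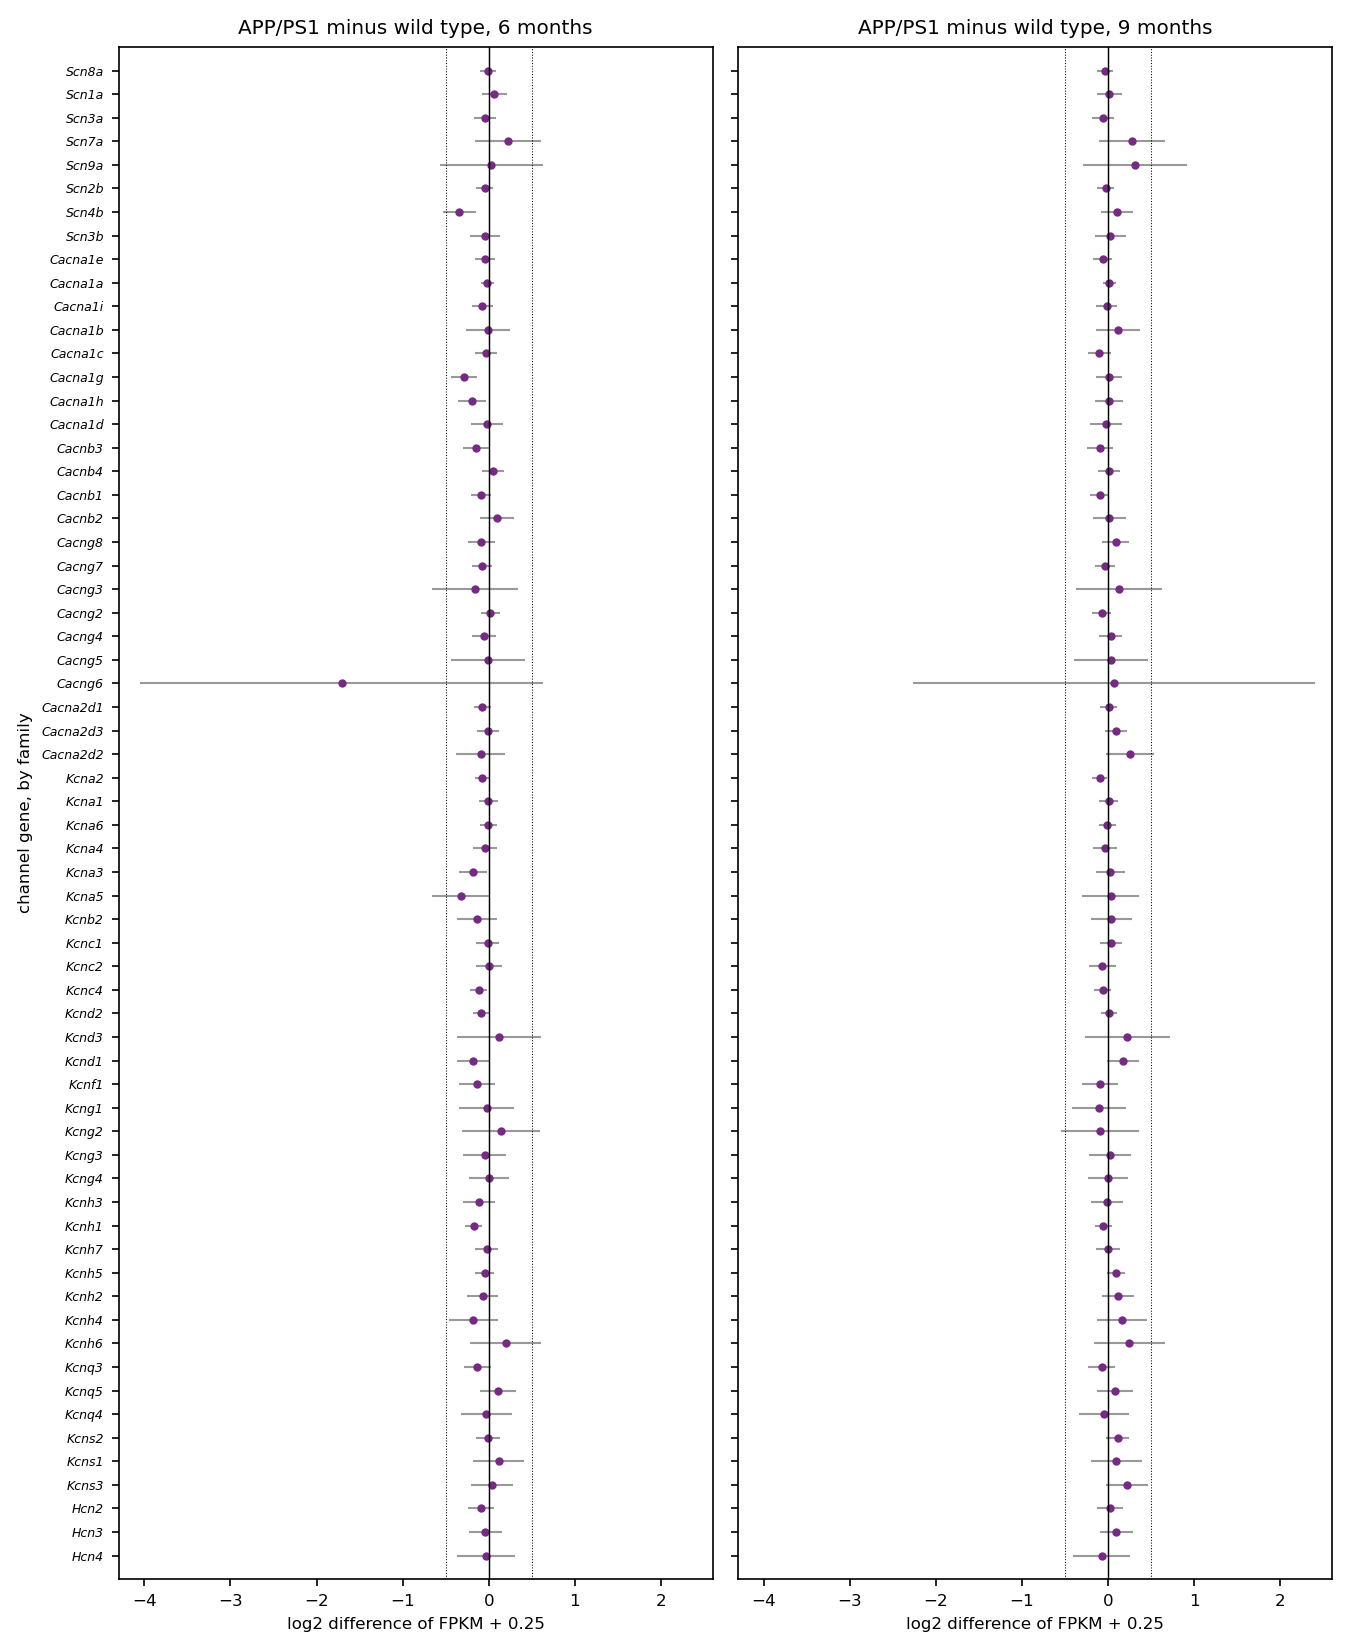
Log2 difference of FPKM + 0.25 between APP/PS1 and wild type for 64 of the 70 tested channel genes at 6 months (left) and 9 months (right), with 95% intervals (lines) from limma; dotted lines mark 0.5 log2 units either side of 0. At 6 months 50 of the 64 estimates lie below 0 and at 9 months 39 lie above 0, and Cacng6 has the widest interval at both ages.

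Over both ages together, 0 channel genes were called (limma), where 0.118% of all genes were, and 8 had an unadjusted p under 0.05, all lower in APP/PS1, against 10.4% of all genes in either direction and 5.4% in the lower one. The count was 13 without APP/PS1 library 1 of 6 months (18.6%, against 11.6% of all genes). It was 5 without APP/PS1 library 2 of 6 months (7.14%, against 9.94%). Kcnh1 had the smallest adjusted p, 0.242, at a log2 difference of -0.12 (SE 0.03). Kcna2 stood at -0.09, Kcnc4, a high-threshold channel of fast-firing axons, at -0.09 and Cacna1g at -0.14, with adjusted p of 0.348 to 0.374 (limma). The channel genes of smallest p with an estimate above 0 were Scn7a at 0.25, Kcnh6 at 0.22, Kcns3 at 0.13 and Kcnq5 at 0.09, with adjusted p of 0.517 to 0.683 (limma).

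The comparison of 9 with 6 months asks which channel genes differ with age within each genotype. In APP/PS1 mice 0 channel genes and 0% of all tested genes were called (limma). At an unadjusted p under 0.05 there were 11 channel genes (15.7%, against 13.2% of all genes). Without APP/PS1 library 1 or 2 of 9 months that count was 6 (8.57%, against 10.9% and 10.5% of all genes). In wild-type mice 0 channel genes were called, where 0.0443% of all genes were, and 15 had an unadjusted p under 0.05 (21.4%, against 10.3% of all genes). With striatal and choroid plexus scores as covariates that count was 0, against 3.95% of all genes, and the wild-type median -0.04. Without the covariates the wild-type median was -0.06 over the channel genes and -0.0036 over all genes. Of the 70 channel genes 48 were below 0, as were 51.5% of all genes. In APP/PS1 the medians were -0.0048 and 0.02. The age groups did not overlap for 23 channel genes in wild type, or 32.9%, where 17.7% of all genes did not overlap, and 18 of these were lower at 9 months (25.7%, against 9.19% of all genes). In APP/PS1 it was 12 genes, or 17.1%, where 17.6% of all genes did not overlap. The 9 striatal markers, whose wild-type level was lower at 9 than at 6 months for 9 of 9, moved with the wild-type age difference. Of 11 choroid plexus markers 11 and of 7 thalamic markers 7 had a higher mean in wild type at 9 than at 6 months. The choroid plexus markers summed to 314 to 358 FPKM in wild type at 9 months, against 6.73 to 299 FPKM at 6 months, where Ttr, their most abundant gene, was at 1.34 and 6.94 FPKM in wild-type libraries 1 and 3. The thalamic markers summed to 76.5 to 91.7 FPKM in wild type at 9 months, against 29.4 to 78.0 FPKM at 6 months. The striatal score was 4.87 to 4.97 in wild type at 9 months and 5.17 to 5.35 at 6 months, without overlap. The covariate fit therefore cannot separate age from these markers, and their part in the age difference was not tested.

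In wild type all 8 Cacna1 genes, all 7 tested Kcnh genes, all 3 Kcnd genes and all 3 Cacna2d genes had age estimates below 0, with medians of -0.11, -0.15, -0.13 and -0.21, while all 4 Kcnc genes were above 0, with a median of 0.10. These families were picked for a shared sign, and 51.5% of all genes were below 0. Below 0 were 6 of 7 Cacng, 5 of 6 Kcna and 3 of 4 sodium channel beta genes. So were 3 of 6 sodium channel alpha, 2 of 4 Cacnb, 2 of 4 Hcn, 2 of 5 Kcnf or Kcng, 1 of 4 Kcnq and 1 of 3 Kcns genes. The 4 Kcnc genes were also above 0 in APP/PS1, with a median of 0.11.

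Scn1a had 38.6, 39.3 and 40.2 FPKM in APP/PS1 at 9 months, against 34.6, 38.1 and 32.3 FPKM in APP/PS1 at 6 months, and 37.7, 39.7 and 39.7 FPKM in wild type at 9 months, against 30.9, 33.3 and 36.2 FPKM in wild type at 6 months. Its log2 difference over both genotypes was 0.20 (SE 0.05, adjusted p = 0.168 by limma), with the 3 younger libraries of each genotype below the 3 older ones. Kcnc4 shared this order, at 21.6, 20.4 and 19.8 FPKM in APP/PS1 at 9 months, against 19.4, 18.3 and 18.5 FPKM in APP/PS1 at 6 months. Cacna2d3, another alpha-2-delta gene, had the opposite order, at 26.5, 27.2 and 26.5 FPKM in APP/PS1 at 9 months, against 28.9, 29.8 and 27.9 FPKM in APP/PS1 at 6 months. In wild type Cacna2d3 had 25.4, 23.2 and 26.9 FPKM at 9 months, against 30.4, 29.6 and 27.2 FPKM at 6 months (log2 difference over both genotypes -0.16, SE 0.04, adjusted p = 0.194 by limma). Kcna4, a channel of the A-type current, also had its older libraries below its younger ones in both genotypes. Channel genes higher at 9 months in both genotypes without overlap thus numbered 3 (4.29%, against 0.856% of all genes), Kcnc4 and Scn1a among them, and those lower were 2 (2.86%, against 0.797% of all genes), Cacna2d3 and Kcna4.

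In wild type the smallest adjusted p among the channel genes was that of Kcnh5, an ether-à-go-go relative, at a log2 difference of -0.19 (adjusted p = 0.265 by limma). Kcnh5 had 16.1, 15.2 and 16.6 FPKM in wild type at 9 months, against 17.9, 18.3 and 18.6 FPKM in wild type at 6 months. The T-type gene Cacna1h stood at -0.23 and the delayed rectifier Kcnb2 at -0.33, with adjusted p of 0.340 and 0.355 (limma). In APP/PS1, Scn4b had 49.9, 47.8 and 53.5 FPKM at 9 months, against 41.2, 37.6 and 40.7 FPKM at 6 months (log2 difference 0.34, SE 0.09, adjusted p = 0.164 by limma). Kcns3 stood at 0.31 there, Cacng5, a glutamate receptor partner, at -0.45, Cacna1c at -0.14, Cacna1e at -0.12 and Scn3a at -0.12, with adjusted p of 0.273 to 0.412 (limma). Over both genotypes 0 channel genes were called (limma), where 0.0148% of all genes were, and 19 had an unadjusted p under 0.05 (27.1%, against 12.2% of all genes). With the striatal and choroid plexus covariates that count was 6 (8.57%, against 7.27% of all genes), under the limit given above for wild type. Kcnb2 stood at -0.24 and Cacng5 at -0.47 in that comparison, with adjusted p of 0.251 and 0.234 (limma).

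The difference between the genotype effects at 9 and 6 months was called for 0 channel genes (limma), where 0.00738% of all genes were. Of the channel genes 3 had an unadjusted p under 0.05 (4.29%, against 11.3% of all genes). They were Scn4b at 0.45 (SE 0.12, adjusted p = 0.260), Cacna1g at 0.30 (SE 0.10, adjusted p = 0.317) and Kcnd1 at 0.36 (SE 0.12, adjusted p = 0.319), all by limma. Kcnd1, a channel of the A-type current, had 2.31, 2.19 and 2.09 FPKM in APP/PS1 at 9 months, against 1.87, 1.96 and 1.92 FPKM in wild type. At 6 months it had 2.13, 1.80 and 1.94 FPKM in APP/PS1, against 2.23, 2.14 and 2.39 FPKM in wild type. Its groups were apart in opposite directions at the 2 ages, which held for 1 channel gene (1.43%) and 1.31% of all genes. The count of 3 was 11 without APP/PS1 library 1 of 6 months (15.7%, against 13.4% of all genes). It was 7 without APP/PS1 library 1 of 9 months (10%, against 10.4%). Without wild-type library 2 of 9 months it was 6 (8.57%, against 11.1%), and without wild-type library 1 of 6 months 5 (7.14%, against 10.1%). With the striatal and choroid plexus covariates it was 0, against 4.18% of all genes. The limits given above for the covariate fit at each age hold here too. Among the channel genes of smallest p with an estimate below 0 were Cacng2, the stargazin gene, at -0.09 and Cacna1c at -0.07, with adjusted p of 0.657 and 0.786 (limma).

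Among the 70 tested genes the highest group mean was under 1.2 times the lowest for 57 genes and under 1.1 times for 26. No share of all genes was computed for these counts, so they do not set channel genes apart. The median absolute log2 difference for age in wild type was 0.104 over the channel genes and 0.0750 over all genes. Over both genotypes it was 0.0775 and 0.0571. In each of the other contrasts it was lower over the channel genes than over all genes. The median SD of log2 level within groups was 0.0919 over the 70 genes and 0.104 over all tested genes, and 0.0737 and 0.0762 where the mean was at least 10 FPKM. Cacng6 varied the most, with an SD of 1.53. It had 3.58, 0.122 and 0 FPKM in APP/PS1 at 6 months, against 2.12, 1.999 and 2.08 FPKM in wild type, and 0.0411, 0.405 and 2.50 FPKM in APP/PS1 at 9 months, against 2.18, 0.143 and 0.224 FPKM in wild type. High and low values occurred in 3 of the 4 groups, and its 6-month estimate of -1.71, the lowest of the channel genes, rests on these. Cacng6, Cacng7 and Cacng8 each carry 2 gene IDs in the table, which were summed. Scn9a (SD 0.36), Cacng3 (0.32), Kcnd3 (0.32) and Kcng2 (0.29) followed.

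For several genes the spread lay in how FPKM was shared between transcripts of 1 gene. Of the 70 tested genes 44 had several transcripts, and the most abundant transcript was the same in all 12 libraries for 33 of these and changed for 11. For Cacna1b, the transcripts ENSMUST00000114447 and ENSMUST00000041342 were listed at 0 in APP/PS1 library 1 at 6 months, wild-type library 3 at 6 months and wild-type library 2 at 9 months. In those 3 libraries ENSMUST00000070864 was at 13.2, 11.2 and 11.7 FPKM, against 3.19 to 3.97 FPKM in the other 9. The gene sum was 19.6, 20.2 and 19.7 FPKM in those 3 libraries, below the 23.2 to 26.6 FPKM of the other 9. These libraries cross both genotypes and both ages.

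Kcnq5, an M-current subunit gene, also had a transcript that was high in some libraries only, while its most abundant transcript was the same in 11 libraries. Its gene sum was 15.0 to 21.4 FPKM, lowest in wild-type library 3 at 6 months. ENSMUST00000115300 was at 8.95 FPKM in APP/PS1 library 1 and 6.92 FPKM in wild-type library 3 at 6 months and at 9.78 and 9.60 FPKM in APP/PS1 libraries 2 and 3 at 9 months, and at 0.541 to 0.757 FPKM in the other 8. For Cacnb4, ENSMUST00000078324 was at 34.97 and 36.5 FPKM in APP/PS1 libraries 1 and 3 at 6 months and at 34.4 FPKM in wild-type library 1 at 9 months, against 6.47 to 16.0 FPKM elsewhere, while the gene sum stayed at 42.6 to 50.2 FPKM. Kcnd3, of the A-type current, had ENSMUST00000098761 at 5.92 FPKM in APP/PS1 library 3 at 6 months and 6.18 FPKM in APP/PS1 library 2 at 9 months, against 2.76 to 3.33 FPKM elsewhere. Of the 129 tested transcripts of channel genes, 0 were called in any of the 7 contrasts (limma over 22318 transcripts). The share of all tested transcripts called was 0.0448% for genotype at 6 months, 0.0627% at 9 months and 0.0896% over both ages, 0.0538% for age in APP/PS1, 0.0134% in wild type and 0.0224% over both genotypes, and 0.0179% for the difference of the genotype effects. At an unadjusted p under 0.05 there were 7 of the 129 for genotype at 6 months (8.65% of all tested transcripts). There were 5 at 9 months (7.02%) and 8 over both ages (7.67%). For age there were 12 in APP/PS1 (9.2%), 15 in wild type (7.58%) and 21 over both genotypes (8.89%). For the difference of the genotype effects there were 4 (8.14%).

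**Figure D4:**
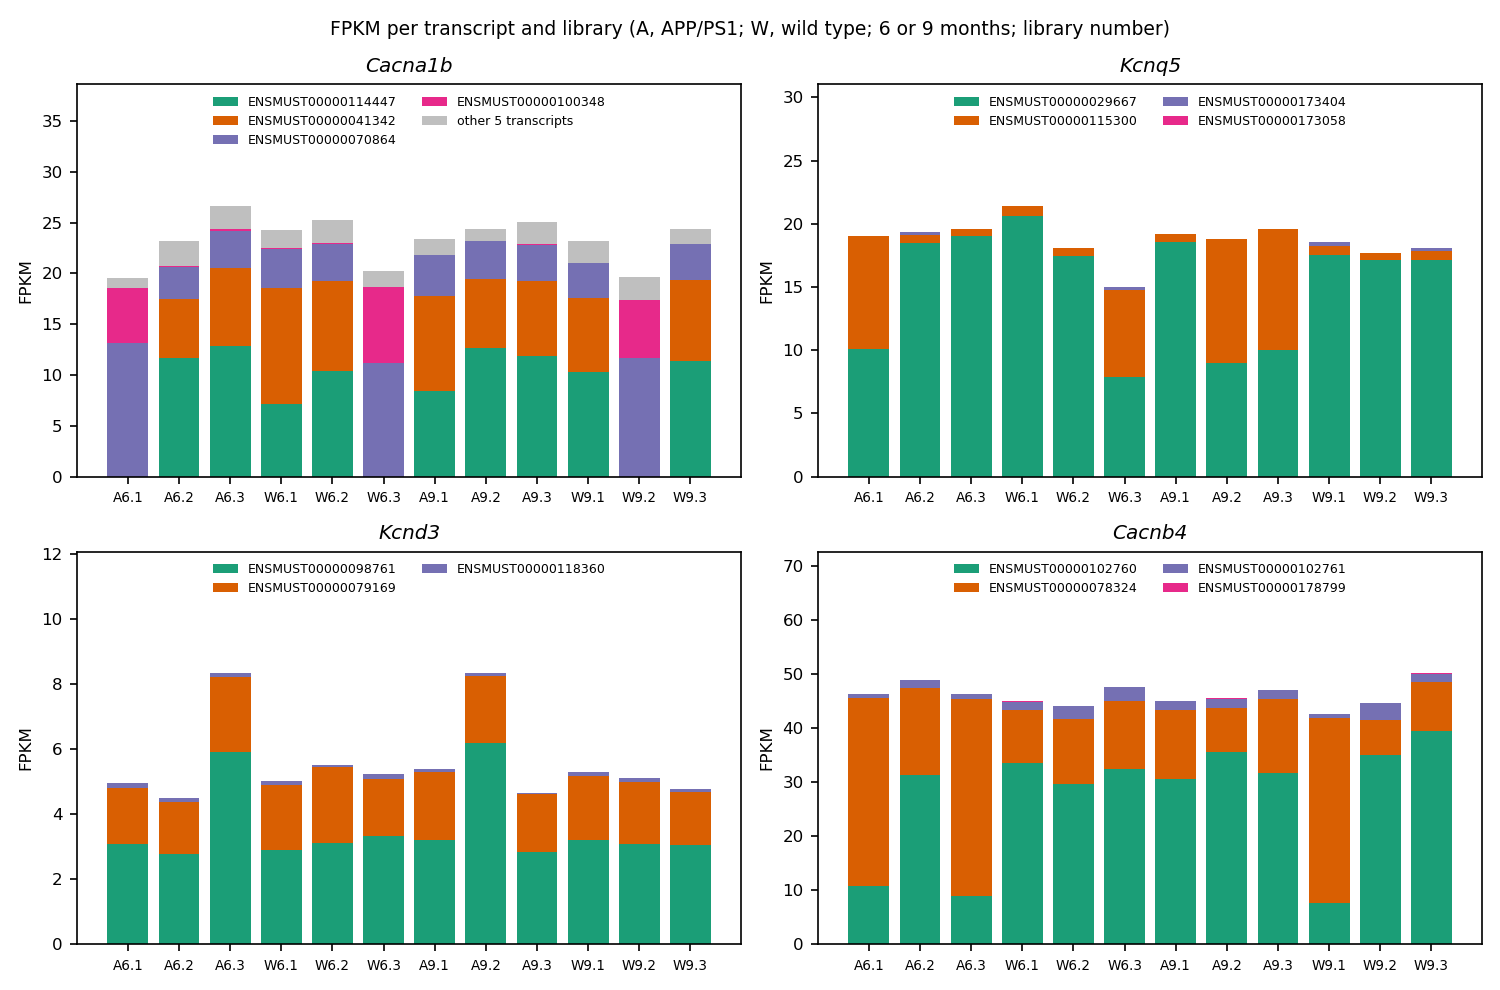
FPKM per library (stacked bars, 12 libraries: A, APP/PS1; W, wild type; 6 or 9 months and library number) of up to 4 of the most abundant transcripts of Cacna1b, Kcnq5, Kcnd3 and Cacnb4, with the remaining transcripts in grey. In single libraries of both genotypes the gene's FPKM sits on another transcript, as for Cacna1b in 3 libraries, whose sum there is 19.6 to 20.2 FPKM, and for Kcnd3 ENSMUST00000098761 is higher in 2 APP/PS1 libraries, whose sum there is 8.33 FPKM.

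Markers of brain regions and cell types varied between libraries, and the slope of each channel gene on 10 marker scores within groups was tested. The number of channel genes called was 0 for each score (limma), where 0.0813% of all genes were for the thalamic score, 0.0591% for choroid plexus, 0.0222% for hypothalamus and pituitary and 0% for each of the other 7. The numbers of the 70 channel genes at an unadjusted p under 0.05 follow, with the share of all genes in brackets. They were 9 for hippocampus (6.97%), 9 for cortex (6.71%), 8 for thalamus (7.65%), 8 for cerebellum (5.57%) and 8 for interneuron (7.45%). They were 7 for hypothalamus and pituitary (7.58%), 4 for choroid plexus (6.55%), 2 for microglia (4.84%), 1 for striatum (2.91%) and 1 for oligodendrocyte (4.88%). The smallest adjusted p was that of Cacna2d2 on the hypothalamus and pituitary score, at a slope of 0.13 log2 units per unit of score (adjusted p = 0.156 by limma). Kcnc2, a channel of fast-spiking neurons, had a slope of 0.20 on the thalamic score (adjusted p = 0.228), Cacnb3 a slope of -0.68 on the hippocampal score (adjusted p = 0.437) and Cacna1b a slope of -2.33 on the interneuron score (adjusted p = 0.433), all by limma. The 3 libraries in which the FPKM of Cacna1b sat on another transcript had interneuron scores of 5.24, 5.22 and 5.28. Each was the highest of its group, so the slope of Cacna1b cannot be told apart from that transcript difference.

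Genes outside the set that work with these channels were read as well. Of the potassium channel partners 13 were tested, of the sodium channel partners 11, of the calcium- and sodium-activated potassium channels 8, of the inward rectifier and tandem-pore potassium channels 15 and of the calcium channel partners 10. In all 7 contrasts 0 of them were called (limma), where 0% to 0.118% of all genes were, and 0 to 6 genes of a list had an unadjusted p under 0.05, against 9.74% to 13.2% of all genes. For genotype at 6 months the numbers at an unadjusted p under 0.05 were 4 of 13, 0 of 11, 1 of 8, 2 of 15 and 1 of 10 (11.8% of all genes). At 9 months they were 0, 0, 2, 1 and 0 (9.74% of all genes). For age in wild type they were 5 of 13, 0 of 11, 3 of 8, 6 of 15 and 2 of 10 (10.3% of all genes). For age in APP/PS1 they were 4, 0, 2, 2 and 0 (13.2% of all genes), and over both genotypes 4, 0, 1, 6 and 0 (12.2%). The antisense transcripts named for channel genes in the lncRNA table, Kcnd3os (mean 1.04 FPKM) and Kcnq1ot1 (mean 1.87 FPKM), were not called in any contrast (limma over 1367 lncRNA genes) and had an unadjusted p under 0.05 in 0 of 14 tests. Without a stated use of strand their reads cannot be told apart from those of Kcnd3 and Kcnq1.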

How the data were processed

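Long RNA was sequenced from 12 libraries, 3 in each of 4 groups of genotype (APP/PS1, wild type) and age (6 and 9 months), grouped by the titles and characteristics of the labels. The authors deposited FPKM per transcript for mRNA and lncRNA, and neither table has a column of read counts, so the depth behind these values is unknown and no count test was run. Per the submitters' processing notes, the tools and builds include Bowtie 0.12.2 and mm8, whose role is not stated. The quantifier, the annotation and whether strand was used have no source here. Per the labels' protocols, RNA was isolated with Trizol and libraries were made with a TruSeq kit. The circRNA and small RNA libraries of the series were not used here.

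Transcript FPKM were summed per gene symbol, after 5 gene IDs without a symbol (6 transcripts, at most 0.0192% of a library's FPKM) were left out. The 13545 genes averaging 0.5 FPKM or more were tested as log2(FPKM + 0.25) with limma 3.58.1 in R 4.3.3 (group means, 7 contrasts, eBayes with a trend), two-sided, with Benjamini-Hochberg adjustment over all of them and a threshold of 0.05. A log2 difference on this scale understates that of low genes. Slopes on a marker score, added to the 4 group means, and single transcripts were tested alike. The fit was first tested on simulated data with known changes. Named genes were the most abundant of each family, the 4 of smallest p per direction and contrast, the 3 of steepest slope per direction and score by p, and the 5 of largest within-group SD. Other genes were named to describe levels, non-overlap or transcripts and were chosen after their values were seen. Some channel genes are counted in every total and median but are not reported here by name. The channel genes and the lists were chosen with earlier results of these data known. The correlations of same-numbered libraries ran from -0.11 to 0.09 in 18 pairs, and those of differently numbered libraries from -0.16 to 0.14 in 36 pairs. The groups were not treated as paired by number in the main fit. Such correlations cannot exclude a batch shared by number. Alternatives were other pseudocounts, filters, scalings and trends, a replicate block, marker scores as covariates and leaving out each library. Promoter windows came from RefSeq (GRCm38.p6).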

Additional observations from a re-analysis of the deposited data

Results flagged for a closer look

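Kcnd1 was the channel gene whose genotype groups did not overlap at both ages but in opposite directions, with APP/PS1 above wild type at 9 months and below it at 6 months. This held for 1.31% of all tested genes and 1.43% of the channel genes. The difference of the 2 genotype differences was 0.36 on the log2 scale, which was tested and not called (adjusted p = 0.319 by limma), and its estimate ran from 0.31 to 0.41 when each library was left out in turn.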

How the results depend on the processing

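The number of channel genes called was 0 in each of the 7 contrasts under all 22 alternatives (limma). The median over the channel genes changed sign between alternatives for genotype at 9 months (-0.011 to 0.018) and age in APP/PS1 (-0.022 to 0.017). For age in wild type it was -0.085 to -0.048 when single libraries were left out, lowest without library 3 of 9 months, and without library 1 of 6 months it was about as low. The median difference of the genotype effects was 0.029 to 0.082 when single libraries were left out, highest without APP/PS1 library 1 of 6 months, and 0.028 with striatum and choroid plexus scores as covariates. With the replicate block the count was 0 as well, and Scn4b at 6 months had an adjusted p of 0.234, against 0.187 without it; 2 of 12 libraries correlated best with their own number. Of 984 values of named genes under the alternatives, 981 kept their direction. The 3 others had the opposite sign. With striatum and choroid plexus scores as covariates, Cacna1c was 0.094 in the difference of the genotype effects between ages. Leaving out single libraries moved Cacnb2 at 6 months between -0.0064 (without APP/PS1 library 1) and 0.16, and Kcnq5 between -0.024 (without wild-type library 3) and 0.23. The cause was not tested. Summing per gene ID was chosen after seeing the data. Unknown depth and 3 libraries a group limit what could be detected: the 95% intervals of 9 of 70 genes reached beyond 0.5 log2 units at 6 months. Of all tested genes, 82.5% had intervals within that limit.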
